A study of Oncorhynchus mykiss with 18 samples.

Results

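Of 4672 small RNA locations predicted in rainbow trout samples of plasma, mucus and water, 3477 had counts in plasma alone and exactly the same counts, over all 18 libraries, as at least 1 other such location. A location here is a row of the count table that carries no known miRNA name and is named by chromosome, start, end and strand on the genome build Omyk_1.0. The members were chosen by 3 measured values: a sum of 0 over the 12 mucus and water libraries, a sum above 0 over the 6 plasma libraries, and identity of the counts with another row. They fell into 306 sets of identical counts, which are called count sets below. The table held 4884 rows in all, of which 212 were known miRNAs, 437 were plasma-only locations with unique counts and 758 were locations with counts in mucus or water.

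Plasma was taken from Oncorhynchus mykiss before (control, 3 fish) and 1 h after (stressed, 3 other fish) the fish were held in air for 3 min, with 1 fish per library and 1 fish of each treatment from each of 3 replicates of the experiment. The labels name no transgene and no other treatment, and all fish were euthanized in buffered MS-222, an anaesthetic, before blood was drawn. Strain, age and sex are not given in the sources used here. Mucus and water of the same experiment enter through the rule and where another row at a member's place had counts in them.

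A miRNA is cut from a hairpin, a stretch of RNA that folds back on itself. Prediction programs such as miRDeep2 look for short reads that stack at a genomic place whose surroundings can fold in that way, and report the hairpin as a location. A short read cannot tell identical copies of a sequence apart, so it can be placed at each of them. Salmonid genomes are known for such copies, since the salmonid ancestor went through a further doubling of its whole genome and transposable elements are abundant. Plasma carries miRNAs released from blood cells and tissues together with fragments of other RNAs.

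Total counts per plasma library ranged from 4338151 in stressed replicate 1 to 13222298 in stressed replicate 2, and known miRNAs took most of them. Known miRNAs of red blood cells (4 of 4 with counts) made up 0.434% to 1.06% of known counts in control and 0.762% to 1.02% in stressed plasma. Those of white blood cells (3 of 4 with counts) made up 0.399% to 0.598% and 0.453% to 0.720%. Those of epithelium and skin (15 of 15 with counts) made up 0.291% to 1.95% in control and 0.0976% to 0.647% in stressed plasma. Those of liver (1 of 1 with counts) made up 0.0398% to 0.231% in control and 0.0220% to 0.150% in stressed plasma. Those of muscle (7 of 7 with counts) made up 0.00603% to 0.102% and 0.00254% to 0.0218%. For these lists fewer cells of a type as a source and less RNA from each cell cannot be told apart, and their part in the results below was not tested.

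Most of the identity was identity of a single small number. Of the 306 count sets, 245 had counts in 1 plasma library alone, and these held 3336 of the 3477 loci (95.9%). For such a row the counts are 1 whole number in 1 fish and 0 in the other 17 libraries. The rows of a library piled up on few numbers. In stressed replicate 1, 781 plasma-only rows were counted in that library alone, and 754 of them (96.5%) shared their count with another row. These 754 had a median of 14 counts. In control replicate 2, 783 of 823 such rows (95.1%) did, and in stressed replicate 2, 261 of 298 (87.6%). The number of different counts among these members ranged from 33 in stressed replicate 3 to 49 in control replicate 2.

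**Figure D1:**
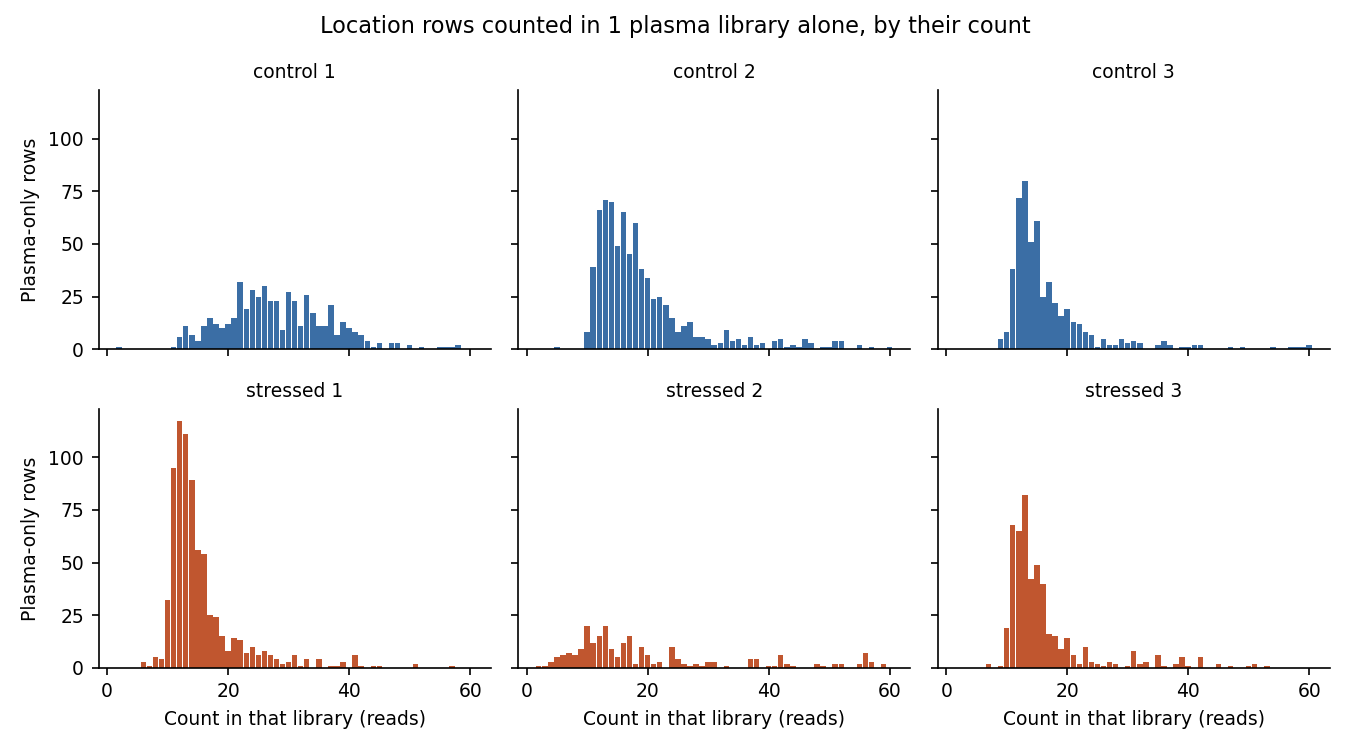
Number of plasma-only location rows (vertical axis) at each count up to 60 reads (horizontal axis) among rows counted in 1 library alone, with control libraries in blue and stressed libraries in orange. Most rows of control replicates 2 and 3 and of stressed replicates 1 and 3 crowd on counts of about 10 to 20, those of control replicate 1 are spread around 27, and stressed replicate 2 has the fewest rows.

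The 10 sets with most loci were all of this kind. A count of 12 in stressed replicate 1 recurred at 117 loci on 27 chromosomes, with lengths of 38 to 87 bases, 60 of them on the plus and 57 on the minus strand (first by name NC_035077.1:49523899-49523937, minus strand). In the same library, 13 counts recurred at 111 loci (first NC_035077.1:41293170-41293246, plus strand), 11 counts at 95 (NC_035077.1:33638398-33638447, minus strand) and 14 counts at 89 (NC_035078.1:11468858-11468947, plus strand). These 4 sets spread over 24 to 28 chromosomes each. In stressed replicate 3, 13 counts recurred at 82 loci (first NC_035077.1:29497517-29497599, plus strand) and 11 counts at 68 (NC_035077.1:70202594-70202646, plus strand). In control replicate 3, 13 counts recurred at 80 loci (NC_035078.1:15944834-15944892, minus strand) and 12 counts at 72 (NC_035077.1:64237921-64237980, plus strand). In control replicate 2, 13 counts recurred at 71 loci (NC_035077.1:20834025-20834088, plus strand) and 14 counts at 70 (NC_035077.1:49603305-49603363, plus strand). No set among these 10 had 1 length.

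Copies per set ran from 2 to 117. Sets of 2 loci were the most common, with 110 sets and 220 loci (6.33% of members). A further 76 sets of 3 to 5 loci held 289 loci, 74 sets of 6 to 20 loci held 773, and 28 sets of 21 to 50 loci held 862. The 18 sets of more than 50 loci held 1333 loci (38.3%), and each had a total of 11 to 18 counts. Large sets were thus sets of low counts.

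Identity that ran through several libraries was rarer and had another form. In 61 sets (141 loci, 4.06% of members) the same counts recurred in 2 or more plasma libraries, which were 46 sets in 2 libraries, 9 in 3, 2 in 4 and 4 in 5. No set had counts in all 6. These 61 sets held 2 to 4 loci each, and 51 of them held loci of 1 length. Per the study's log, miRDeep2 proposed precursors from reads of 18 to 25 bases that matched the genome without mismatch at no more than 5 places. Among sets counted in 1 library, 59 of the 69 with a count under 20 had more than 5 loci, against 58 of 115 at 20 to 49 counts, 2 of 36 at 50 to 99 and 1 of 25 at 100 or more.

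The set of highest total in several libraries was a pair of overlapping locations, NC_035087.1:1358140-1358190 and NC_035087.1:1358171-1358221 (both plus strand, 50 bases). Each had 953, 992 and 0 counts in control replicates 1, 2 and 3 and 0, 0 and 607 in stressed replicates 1, 2 and 3. High and zero libraries were found in both treatments. The pair at NW_018556885.1:778-835 and NW_018556886.1:778-835 (plus strand) lay at the same offset of 2 unplaced scaffolds. It had 28, 0 and 0 counts in control and 874, 219 and 615 in stressed plasma, so all 3 stressed fish were above all 3 control fish. A set of 4 loci, NC_035097.1:30277287-30277343 (plus strand), NW_018553454.1:161-217, NW_018608083.1:9023-9079 and NW_018608812.1:161-217 (minus strand), had 0, 96 and 87 counts in control and 58, 92 and 68 in stressed plasma. The counts other than the zero lay between 58 and 96, and the groups overlapped.

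Further sets were counted in most fish at low level. A set of 3 loci of 62 or 63 bases, NC_035092.1:3012777-3012839, NC_035100.1:18446199-18446262 and NC_035103.1:21776762-21776825 (plus strand), had 46, 33 and 13 counts in control and 58, 12 and 0 in stressed plasma. The pair NC_035087.1:12909154-12909210 and NC_035087.1:12909205-12909261 (plus strand), which overlap by 5 bases, had 33, 0 and 12 in control and 37, 30 and 10 in stressed plasma. The groups overlapped in both sets. The pair NW_018529335.1:21196-21266 (plus strand) and NW_018562838.1:811-881 (minus strand) was counted in stressed plasma alone, with 204, 0 and 198 counts. Among sets counted in several libraries, 13 had counts in 2 stressed fish alone and 11 in 2 control fish alone.

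**Figure D2:**
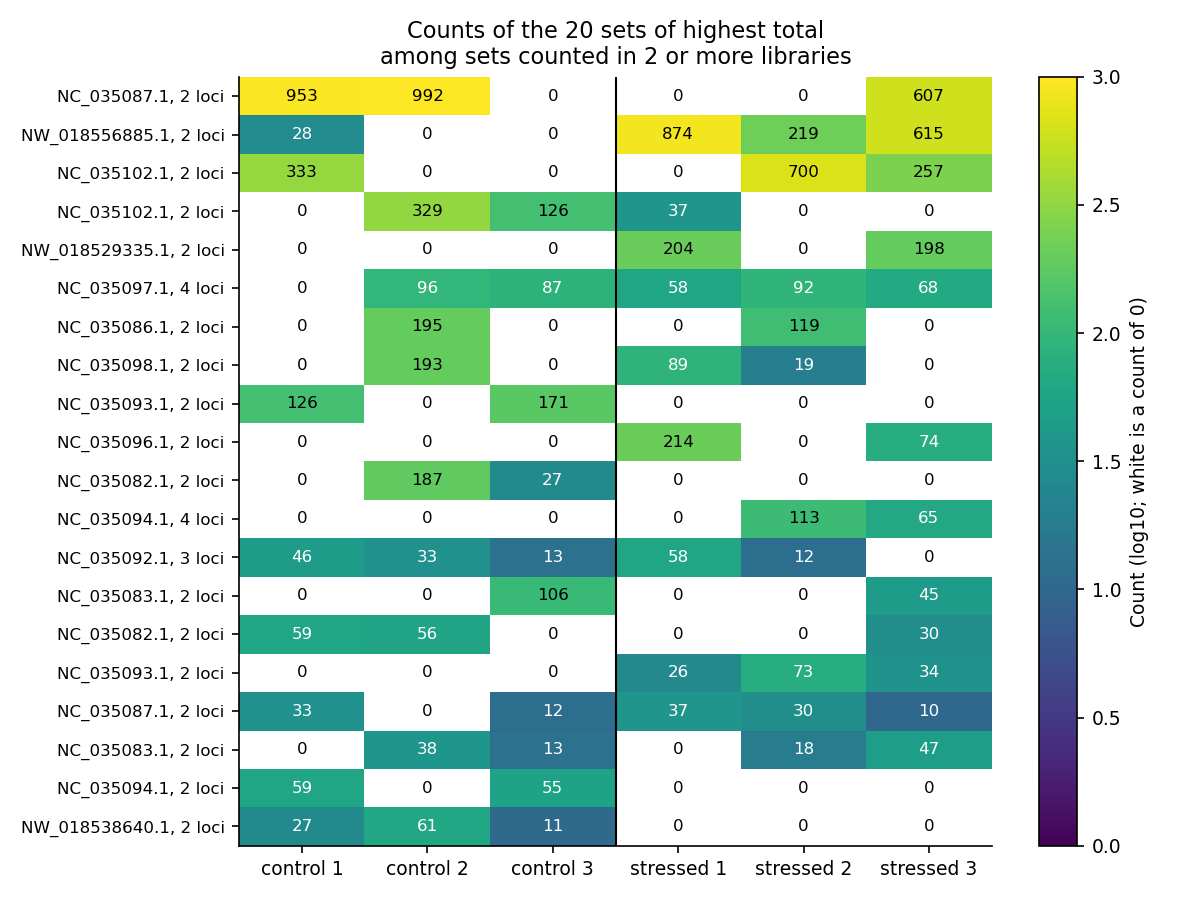
Counts (colour on a log10 scale, with the count printed and white for 0) in the 6 plasma libraries (columns) for the 20 count sets of highest total among those counted in 2 or more libraries (rows, named by the chromosome or scaffold of the first locus). Zeros stand beside high counts, as in the top row with 953 and 992 in control replicates 1 and 2 and 0 in control replicate 3.

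The highest counts of all stood in 1 library each. A set of 4 loci of 50 bases on NC_035092.1 (minus strand), at 20788700-20788750, 20791890-20791940, 20797304-20797354 and 20802929-20802979, had 10792 counts at each locus in stressed replicate 2 and 0 in the other plasma libraries. The pair NC_035077.1:28628390-28628453 and NC_035078.1:58142056-58142119 (plus strand, 63 bases) each had 9755 counts in control replicate 2 alone. Next among sets of 1 library, with 379 counts in stressed replicate 2, came the pair NC_035083.1:23159033-23159102 and NW_018607205.1:4133-4201 (plus strand). A set of 5 loci of 62 bases (plus strand) had 328 counts in stressed replicate 2. Its loci were NC_035088.1:85142886-85142948 and NC_035088.1:85144069-85144131, and NC_035089.1:51654158-51654220, NC_035089.1:51662228-51662290 and NC_035089.1:51663477-51663539. A member row that starts 1 base before the first of these loci, NC_035088.1:85142885-85142948, had 142 counts in control replicate 3. The first 2 sets gave 43168 and 19510 of the counts at member loci in their libraries, since each locus carries the whole count.

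Equal length, which the rule did not use, was common where identity ran through several libraries or rested on a high count. Loci of a set counted in several libraries had equal lengths in 90 of 106 pairs (84.9%). In sets counted in 1 library, 2213 of 70129 pairs (3.16%) had equal length, beside 2.29% (24004 of 1048848) among pairs of plasma-only rows of 1 library with different counts. Within the 1-library sets the share rose with the count, from 2.77% (1741 of 62892 pairs) under 20 counts to 5.17% (363 of 7020) at 20 to 49, 42.2% (49 of 116) at 50 to 99 and 59.4% (60 of 101) at 100 or more. Pairs share loci and so are not independent, and these shares are given with no test. Requiring both identical counts and the same length left 2139 loci, a number given without the share expected by chance.

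**Figure D3:**
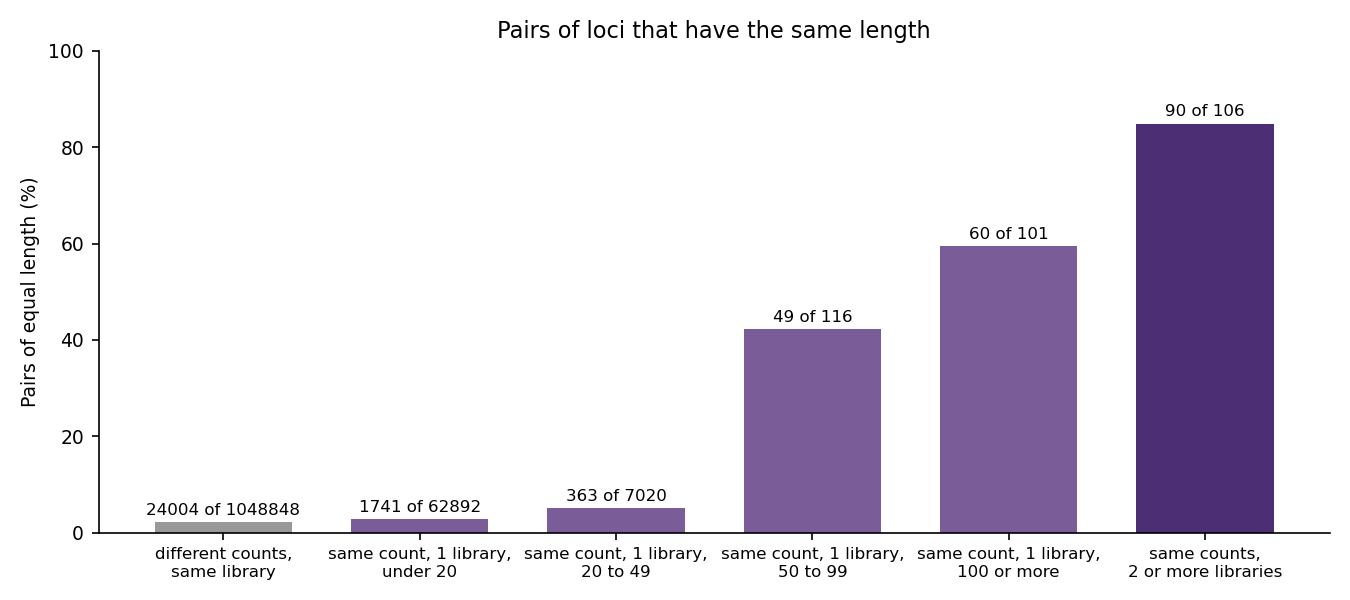
Percent of pairs of loci with equal length (bars, from 0 to 100%), with the number of equal pairs of all pairs above each bar. The grey bar gives rows of 1 library with different counts (2.29%), the light bars give pairs of the same count in 1 library by the size of the count, and the dark bar gives pairs of the same counts in 2 or more libraries (84.9%).

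Some loci of a set lay on top of each other. On the same strand, 118 pairs of a set overlapped (229 loci), and the shared stretch had a median of 21 bases, with 95 of 118 pairs (80.5%) sharing 18 to 25 bases. That is the range of read lengths given above. Among plasma-only rows of 1 library, overlapping same-strand pairs had identical counts in 111 cases and different counts in 2, while 6.27% of all pairs of rows of 1 library had identical counts. In the pair on NC_035087.1 described above, the locations shared 19 bases. Another 15 pairs overlapped on opposite strands, all of equal length, with 46 to 86 bases in common. An example is NC_035093.1:5527110-5527177 on the minus strand and NC_035093.1:5527112-5527179 on the plus strand.

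**Figure D4:**
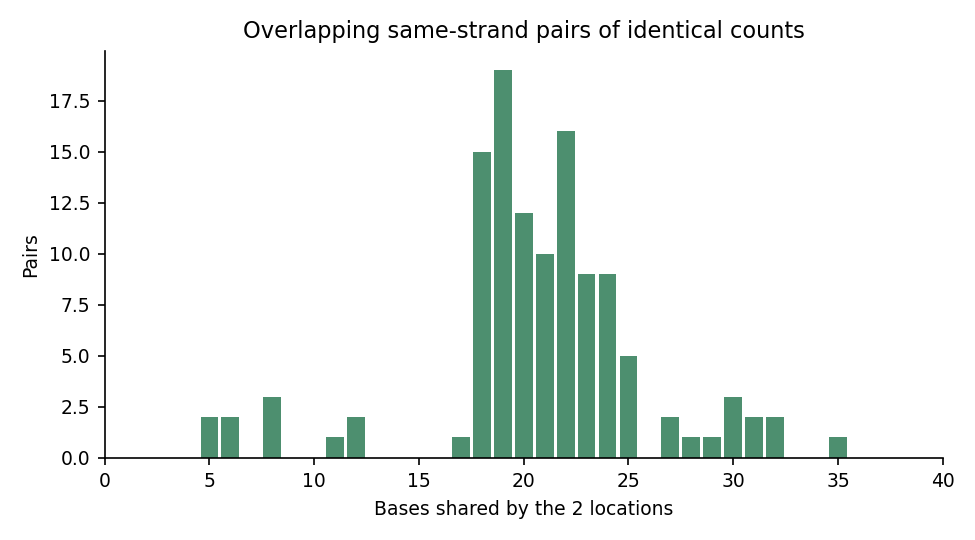
Number of pairs (vertical axis) by the bases shared (horizontal axis) for the 118 same-strand pairs of identical counts that overlap. Most pairs share about the length of a small RNA read, with a median of 21 bases.

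Others lay in tandem. Within 100 kb on a chromosome or scaffold, 258 pairs of a set had equal length without overlapping (407 loci), and 246 of these pairs were on the same strand. In rows of 1 library, near pairs of equal length had identical counts in 227 cases and different counts in 9. The 4 loci of 10792 counts on NC_035092.1 were spaced in this way. So were NC_035098.1:8682726-8682784 and NC_035098.1:8683331-8683389 (minus strand, 58 bases), which had 0, 193 and 0 counts in control and 89, 19 and 0 in stressed plasma. In all, 141 members were counted in several libraries, a further 555 were counted in 1 library and overlapped or lay near a locus of equal length, and 2781 (79.98%) were counted in 1 library and did neither.

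The loci were spread over all 29 chromosomes, with 201 on NC_035089.1, 182 on NC_035088.1 and 57 on NC_035104.1, the fewest. Unplaced scaffolds held 420 loci (12.1%), against 29 of 437 (6.64%) plasma-only rows of unique counts and 73 of 758 (9.63%) rows with mucus or water counts. Among sets counted in several libraries the share on scaffolds was 24.8% (35 of 141 loci). The strands were even, with 1719 loci on the plus and 1758 on the minus strand. Lengths ran from 35 to 111 bases with a median of 60, as they did for rows of unique counts (34 to 99 bases, median 60). Length is the end minus the start as written in the row name. No genome of the build was used here, so neither the sequence nor the annotated gene or repeat at a location is given.

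Of the 61 sets counted in several libraries, 21 lay on 1 chromosome, 17 on more than 1 chromosome, 16 on a chromosome and a scaffold, and 7 on scaffolds alone. The chromosomes NC_035082.1 and NC_035102.1 shared 3 such sets, each with equal length and strand on both. The first was NC_035082.1:59790896-59790958 with NC_035102.1:14674083-14674145 (minus strand), the next NC_035082.1:71779623-71779687 with NC_035102.1:26664663-26664727 (minus strand), and the last NC_035082.1:73855924-73855996 with NC_035102.1:28943892-28943964 (plus strand). The start positions differed by 45116813, 45114960 and 44912032 bases, and the 3 sets stood in the same order on both chromosomes. The spacing between the first and the next set was nearly the same on both, and that to the last set was less alike. Of the other pairs of chromosomes, NC_035091.1 with NC_035097.1 alone shared more than 1 of these sets, and their 2 differences were far apart (-12799989 and 23848957 bases).

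The zeros of these rows were not always zeros of the place. Per the study's log, miRDeep2 was run on each library by itself, and it can draw the ends of a hairpin at slightly different bases in different libraries. Rows on the same strand whose starts and ends each lay within 5 bases of another row were therefore read as 1 place, a choice made after the data were seen. Of the 4178 places of all location rows, 367 held more than 1 row (861 rows), and in 0 of them did 2 rows have counts in the same library. Of the 3477 members, 471 (13.5%) shared a place with another row, and 453 of them gained plasma libraries by it. At limits of 1, 2, 10 and 20 bases, 280, 394, 486 and 500 members shared a place, again with 0 places whose rows shared a library. The 3336 members counted in 1 library included 407 (12.2%) whose place was counted in more plasma libraries.

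A pair of member rows shows this in full, and their sets held another pair of rows that likewise differed by 1 base, NC_035102.1:40161724-40161786 and NC_035102.1:40161723-40161786 (plus strand). NC_035102.1:40115109-40115171 (minus strand) had 333, 0 and 0 counts in control and 0, 700 and 257 in stressed plasma. NC_035102.1:40115109-40115172, which ends 1 base later, had 0, 329 and 126 in control and 37, 0 and 0 in stressed plasma. The zeros of each row stood exactly where the other had counts, and the place was counted in 6 of 6 plasma libraries. The set of 4 loci on NC_035097.1 and 3 scaffolds lacked counts in control replicate 1 alone, and the row NC_035097.1:30277287-30277344 had 95 counts there. With both rows the place had 95, 96 and 87 counts in control and 58, 92 and 68 in stressed plasma. In CPM, counts per 1000000 counts of the library, this place had 11.01 ± 2.65 (SD, n = 3) in control fish, and 10.7 ± 3.35 (SD, n = 3) after stress.

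**Figure D5:**
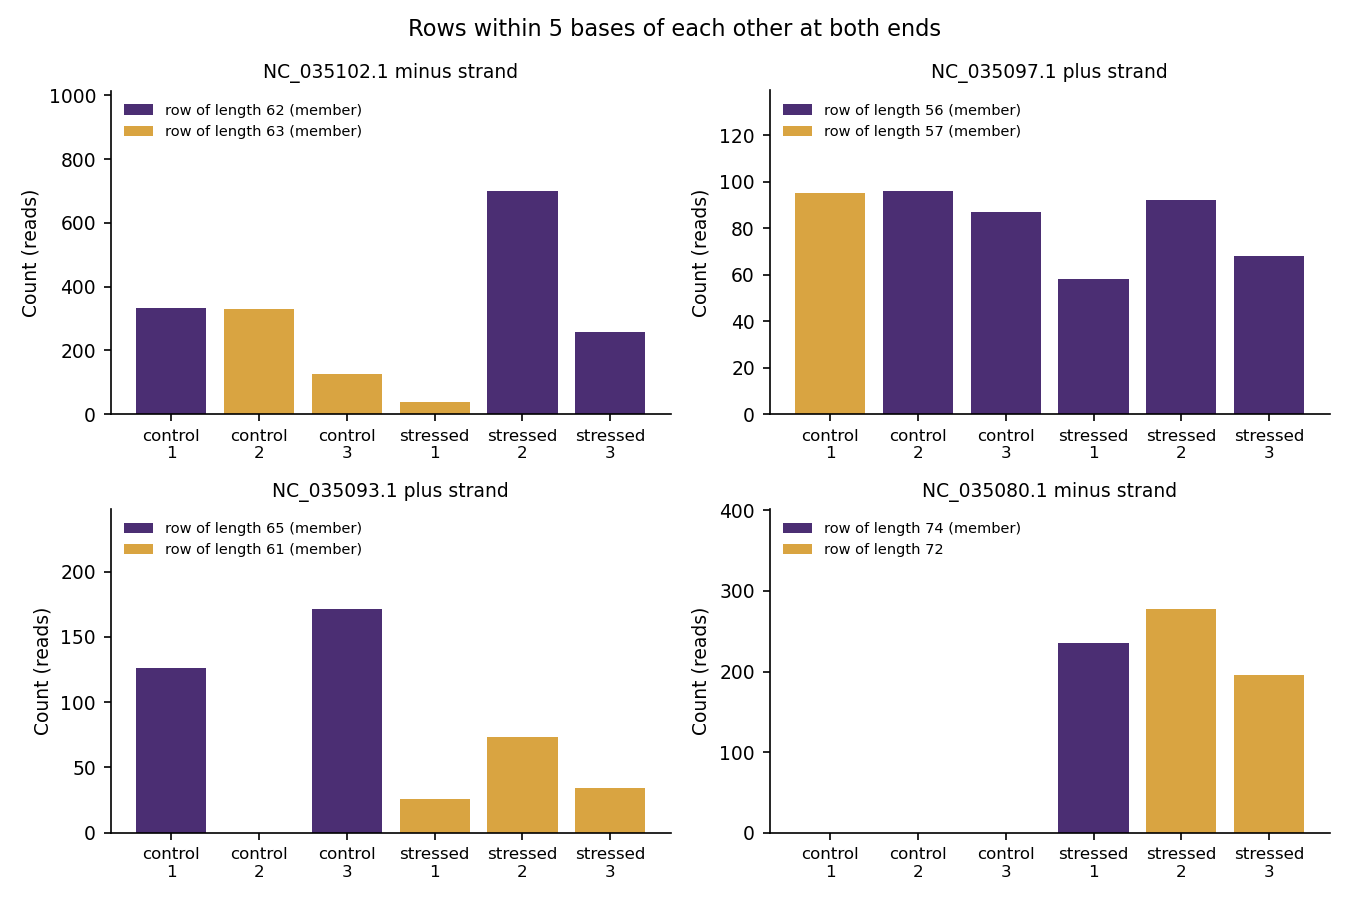
Counts (bars from 0, in reads) in the 6 plasma libraries at 4 places. Colours mark the rows with plasma counts that lie within 5 bases of each other at both ends, with their lengths and whether they are members. Rows counted in mucus or water alone, present at the NC_035102.1 and NC_035093.1 places, are not drawn. No library has counts in both rows of a place, and at the NC_035102.1 place the rows together fill all 6 libraries.

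Plasma-only likewise described the row and not always the place. Of the 3283 places that held members, 11 were counted in all 6 plasma libraries, and 70, with 85 members, had mucus or water counts under another row. Copies of the same counts are among both, and the 11 places held 7 different patterns of counts over all libraries. The places NC_035077.1:28628390-28628451 and NC_035078.1:58142056-58142117, which hold the pair with 9755 counts in control replicate 2, were counted in 18 of 18 libraries. Their other rows had 15686 and 18677 counts in control replicates 1 and 3, and 5010, 2569 and 7695 in stressed replicates 1, 2 and 3. Control plasma had 1821 ± 840 CPM (SD, n = 3) there and stressed plasma had 896 ± 615 (SD, n = 3). The groups overlapped (edgeR with the rows of a place summed, adjusted p = 0.997). At the 4 loci of 10792 counts on NC_035092.1 no other row lay within 5 bases.

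Just outside the rule, 36 of the 437 plasma-only rows of unique counts (8.24%) differed from a member by 1 count in 1 library. Of the 161 location rows with counts in plasma and in mucus or water, 45 (27.95%) were identical to another, and of the 597 with mucus or water counts alone, 360 (60.3%) were, against 3477 of 3914 plasma-only rows (88.8%). The 161 rows have counts in more than 1 library by definition. Among plasma-only rows, 3336 of the 3477 members and 177 of the 437 rows of unique counts were counted in 1 library alone. The shares thus come from unlike rows and give no trait particular to plasma-only rows. Among the 45 identical rows, those nearest to the rule had a mucus and water sum of 12, such as NC_035081.1:7394299-7394364 and NC_035081.1:7395019-7395084 (plus strand), with 144 counts in stressed replicate 2 and 12 in stressed water replicate 1. Just inside it stood the 110 sets of 2 loci. Of the 205 known miRNAs with plasma counts, 34 (16.6%) had counts identical to another known miRNA.

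The number of member loci per fish overlapped between the treatments. Control replicates 1, 2 and 3 had counts at 551, 851 and 581 loci, and stressed replicates 1, 2 and 3 at 811, 319 and 564. Stressed replicate 2, the library with the largest total count, had the fewest. The mean was 661 ± 165 (SD, n = 3) for control fish and 565 ± 246 (SD, n = 3) for stressed fish, a difference of -96.3 loci (2-sided exact permutation test, p = 0.5, where 3 fish against 3 cannot give a p below 0.1). Without stressed replicate 2 the difference was 26.5 loci, and among loci with a total of at least 100 counts it was 9.0 (exact permutation p = 0.4).

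With each count set taken once, 59, 78 and 60 sets had counts in control and 61, 73 and 61 in stressed replicates 1, 2 and 3. The difference of the means was -0.667 sets (exact permutation p = 1.0), and it changed sign without control replicate 2 (5.5 sets) and without stressed replicate 1 or 3 (1.33 sets each). Member loci held 0.278%, 0.383% and 0.153% of the total counts in control and 0.424%, 0.427% and 0.249% in stressed replicates 1, 2 and 3. The groups overlapped, with a difference of 0.0955 percentage points (exact permutation p = 0.3, which does not decide whether the difference holds). The difference was 0.0365 points without control replicate 3. Without the 2 sets of highest total the shares were 0.278%, 0.213% and 0.153% in control and 0.424%, 0.101% and 0.249% in stressed plasma. Stressed replicate 2 was then the lowest library, and the difference was 0.0435 points (exact permutation p = 0.8). With each set counted once, the shares were 0.0524%, 0.145% and 0.0283% in control and 0.0865%, 0.116% and 0.0644% in stressed plasma, a difference of 0.0138 points (exact permutation p = 0.7) that became -0.00963 points without control replicate 3.

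The main test called no member locus altered after the stressor. Of the 3477 members, 33 loci, from 15 count sets, passed edgeR's filter on low counts, and of the 365 rows tested with them edgeR's quasi-likelihood test called 0 (0.0%) where a call needed p of 0.05 or less, a false discovery rate below 0.1 and a log2 fold change beyond 2 in size. An unadjusted p of 0.05 or less was found at 6 loci of 3 sets, beside 18 of all 365 rows (4.93%). The lowest adjusted p of a member in this edgeR test was 0.316. DESeq2 without that filter called 5 member loci, beside 10 of 3981 rows (0.251%). It gave an adjusted p, which a call needs, to 922 of these rows. A locus that passed the filter only through the treatment in which it was high had to differ, so these counts are a description.

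The 3 sets of lowest p had counts in 3 fish of 1 treatment and 0 in the other. They passed the filter through that treatment alone and so had to differ, and their p are given as a description. The pair NC_035093.1:844679-844740 and NC_035093.1:848947-849008 (plus strand) had 26, 73 and 34 counts in stressed and 0 in each control library (edgeR, unadjusted p = 0.00832, adjusted p = 0.316). The pair NC_035082.1:73855924-73855996 and NC_035102.1:28943892-28943964 had 10, 40 and 15 counts in stressed and 0 in control plasma (edgeR, adjusted p = 0.316). The scaffold pair NW_018538640.1:2709-2770 and NW_018597676.1:1516-1577 (plus strand) had 27, 61 and 11 counts in control and 0 in stressed plasma (edgeR, adjusted p = 0.316). No fold is given against these zeros, because a listed 0 may stand for some reads. By library, the lowest count was 4 to 12 among members counted in 1 library alone and 2 to 7 among all location rows. Such a pattern was found at 4 members higher and 2 members lower in stressed plasma, beside 10 (0.234%) and 5 (0.117%) of all 4280 rows with plasma counts.

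For 2 of these 3 sets the zeros were not zeros of the place. At the NC_035093.1 place the row NC_035093.1:844677-844742 had 126 and 171 counts in control replicates 1 and 3, so that the place had 13.2 ± 11.6 CPM (SD, n = 3) before and 5.81 ± 0.253 (SD, n = 3) after stress, lower instead of higher on average. At the NW_018538640.1 place the row NW_018538640.1:2706-2773 had 17 counts in stressed replicate 2. The pair on NC_035082.1 and NC_035102.1 had no other row at its place.

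Among the other sets that passed the filter, the pair on NW_018556885.1 and NW_018556886.1 had 1.35 ± 2.33 CPM (SD, n = 3) before and 108 ± 92.5 (SD, n = 3) after stress, with a log2 fold change of 5.89 (SE 2.54, edgeR, adjusted p = 0.805). The pair NC_035087.1:77966209-77966265 and NW_018568684.1:328-384 (minus strand) had 0, 10 and 5 counts in control and 11, 28 and 26 in stressed plasma (edgeR, adjusted p = 0.993, with a log2 fold change of 2.35 and an SE of 1.69). Both pairs had counts in fewer than 3 control fish and passed the filter through the stressed fish, in which they were high. Their fold changes and p are therefore a description. The CPM of the groups did not overlap at 8 members with higher and 2 with lower values in stressed plasma, beside 31 (0.724%) and 13 (0.304%) of all 4280 rows. The pair NC_035086.1:67576375-67576431 and NC_035095.1:3685425-3685481 had 0, 33 and 12 counts in control and 0, 14 and 0 in stressed plasma. The set at NC_035082.1:59790896-59790958 had 59, 56 and 0 in control and 0, 0 and 30 in stressed plasma, while a row ending 1 base later had 24 in stressed replicate 2. Both of these sets had overlapping groups, as did the pair NC_035087.1:1358140-1358190 and the rows ending at 40115171 and 40115172 on NC_035102.1.

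The 5 loci that DESeq2 called were each counted in 1 fish. NC_035088.1:75894388-75894432 (minus strand) and NC_035093.1:33779799-33779854 (plus strand) had 72 counts in control replicate 1 (DESeq2 log2 fold change -21.38, SE 3.91, adjusted p = 1.27e-05). NC_035091.1:58934884-58934935, NC_035091.1:58942466-58942517 (plus strand) and NC_035100.1:16889950-16889990 (minus strand) had 68 counts in stressed replicate 1 (DESeq2 log2 fold change 20.76, SE 3.91, adjusted p = 1.27e-05). With all other plasma libraries at 0, such a fold change has no bound set by the data. The loci of either set were not all of 1 length, and at each of these 5 places a row within 5 bases had counts in another fish. These were 59 counts in control replicate 3 on NC_035088.1, 29 in control replicate 2 on NC_035093.1, 24 in stressed replicate 2 at both places on NC_035091.1 and 20 in control replicate 2 on NC_035100.1. With the rows of a place summed, DESeq2 called 0 member places, beside 2 of 3731 rows in all (0.0536%). In that fit 51 of 3202 member places had an unadjusted p of 0.05 or less, beside 81 of the 3731 rows (2.17%). Without the filter on low counts, edgeR called 6 members, the loci of 10792 and of 9755 counts, beside 21 of 4280 rows (0.491%).

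With the rows of a place summed, 142 member places entered the edgeR fit and 0 of the 466 rows tested (0.0%) were called. An unadjusted p of 0.05 or less was found at 15 member places, 13 higher and 2 lower in stressed plasma, beside 31 of 466 rows (6.65%). Copies of the same counts are among them, such as the set of 4 places named below, so the places are not independent. A place that passed the filter through 1 treatment alone had to differ, so these numbers of places and the values of the places named next are a description. The lowest p was at NC_035080.1:5700480-5700554 (minus strand), where the member row had 235 counts in stressed replicate 1 and the row NC_035080.1:5700482-5700554 had 277 and 196 in stressed replicates 2 and 3. The place had 0 counts in each control library and 36.4 ± 16.7 CPM (SD, n = 3) in stressed plasma (edgeR, adjusted p = 0.160). A set of 4 places, NC_035082.1:59973508-59973553 (minus strand), NC_035087.1:46114201-46114248 (plus strand), NW_018539490.1:7768-7813 (minus strand) and NW_018543711.1:23009-23056 (plus strand), had 165, 113 and 42 counts in stressed and 0 in control plasma (edgeR, adjusted p = 0.268). In this set the counts of each stressed fish stood in a row of another length. Counts in 3 stressed fish and 0 in control were found at 11 member places (7 different count sets) and the reverse at 2, beside 16 (0.407%) and 5 (0.127%) of 3931 rows.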

How the data were processed

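Reads were trimmed by the authors with cutadapt 2.10, then aligned with Bowtie 1.1.1 to Omyk_1.0 and counted with miRDeep2 within miARma-Seq, per the labels and the study's methods. The deposited table holds estimated counts per known miRNA or predicted location, with no normalization, and every value was whole. Tables of the authors' own comparisons were not used. Members and lists were chosen with earlier results of these data known. The tests used edgeR 4.0.16 and DESeq2 1.42.0 in R 4.3.3, and Python 3.11.15 with pandas 2.3.3. Plasma counts were scaled by TMM before and after the filter filterByExpr (by treatment). The quasi-likelihood fit, checked on simulated data, covered the 365 rows past the filter, with Benjamini-Hochberg adjustment over them, and the exact edgeR test that the study used for plasma was an alternative. The simulated rows were drawn independently of each other, so the check does not cover copies of the same counts or places split into rows. Precision is set by 3 fish a group and by counts mostly under 20, and reads had no molecular identifiers. Sets named were the 10 with most loci, the 10 of highest total, the 10 of lowest p past the filter and all called in any fit; others named were chosen after their values were seen.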

Additional observations from a re-analysis of the deposited data

Results flagged for a closer look

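At 70 places of member loci, counts of mucus or water stood under another row of the same place, outside the rows that were compared here. Copies of the same counts are among these places. For NC_035077.1:28628390-28628451 and NC_035078.1:58142056-58142117 the mucus and water counts summed to 484459 at each place.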

How the results depend on the processing

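None of the 41 alternatives of the group differences could give a p under 0.05. Groups of 3 fish or fewer allow no exact permutation p below 0.1, and 3 pairs no sign-flip p below 0.25. Their p ran from 0.2 to 1.0 and so do not decide whether a difference holds, and 9 of 41 changed its sign. For loci with counts per library (main difference -96.3), the sign changed among loci of at least 100 counts (9.0) and in sets of 2 or more libraries (8.33). Leaving out 1 library gave -219.5 to 26.5. For count sets it changed under the same choices (3.33 and 3.0), and leaving out 1 library gave -4.67 to 5.5, with 1.33 without stressed replicate 1 or 3. For the share of counts leaving out 1 library gave 0.0365 to 0.155 points, and with each set once -0.00963 to 0.0487. Members called numbered 0 in edgeR's quasi-likelihood test and in 13 of 15 alternatives, 5 with DESeq2 and 6 without the low count filter. With the replicate block, edgeR called 0 members. The differences of -96.3 loci and 0.0955 points had sign-flip p of 0.75 and 0.25, where 0.25 is the smallest that 3 pairs can give. Residuals of same-numbered fish correlated at -0.174 to -0.0173, and the study took plasma as unpaired, so the numbers were not read as pairs. In same-numbered fish the share of counts at member loci was higher after stress in 3 of 3. In replicate 2 it was lower after stress without the 2 sets of highest total (0.213% in control, 0.101% in stressed plasma). With each set once it was lower there too (0.145% and 0.116%). The 3 fish a group and the split of places into rows limit every comparison.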
